A study of Mus musculus with 14 samples.

Results

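The clustered histone genes are the genes of the Hist1, Hist2, Hist3 and Hist4 loci, which encode the canonical histones of the nucleosome and its linker histone. They were followed in thymic cells with or without Ezh2 and p53 and in 2 leukemias. A member was a non-control probe whose matched gene carries a symbol or older symbol that starts with Hist1h, Hist2h, Hist3h or Hist4h. The scanner files used here hold no gene names, so genes were matched through RefSeq accessions to the GRCm38.p6 gene table. This gave 52 of 55681 probes, for 46 of the 70 reference genes with such a name; 24 had no matched probe. By class, the members comprise 6 genes of the linker histone H1 (6 probes), 13 of H2A (15 probes), 11 of H2B (11 probes), 7 of H3 (7 probes) and 9 of H4 (13 probes). By locus, 36 genes lie in the Hist1 locus on chromosome 13, 7 in Hist2 on chromosome 3, 2 in Hist3 on chromosome 11, and Hist4h4 alone in Hist4 on chromosome 6. Of the 52 probes, 44 were well above background on all 14 arrays and 50 on at least 2 of them, which were tested. The probe of Hist1h1d and 1 of the 2 probes of Hist4h4 (A_51_P148860) were above background on no array and carry no level here.

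Lethally irradiated CD45.1+ recipients were given bone marrow of C57BL/6 background; cells of the recipients that may have survived are not described in the labels. Every graft carried Cre-ERT2, a Cre recombinase that works only after an inducer is given, and this includes the WT controls. The groups were Ezh2Δ/Δp53Δ/Δ (from Ezh2flox/flox;p53flox/flox;Cre-ERT2 marrow, called double-deleted here), Ezh2Δ/Δ (Ezh2flox/flox;Cre-ERT2, Ezh2-deleted), p53Δ/Δ (p53flox/flox;Cre-ERT2, p53-deleted) and WT (Cre-ERT2 alone). Deletion took place 4 weeks after transplantation, and CD4-CD8- thymic cells were sorted at 3 months. DN1 cells are CD44+CD25-, DN2 cells CD44+CD25+ and DN3 cells CD44-CD25+. Each genotype and stage had 1 array, which makes 12 non-leukemic arrays. The other 2 arrays held DN2-gated leukemic cells from a pair of double-deleted mice that had early T cell precursor leukemia (ETP-ALL), for which the labels give no time. The age and sex of the mice, and whether cells of several mice were pooled, are not stated in the labels used here.

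Canonical histone messages are made in bulk while DNA is copied in S phase, and end in a stem-loop where other messages carry a poly(A) tail. The stem-loop is bound by SLBP, and transcription of the clusters takes place in the histone locus body, which is organised by NPAT and by CASP8AP2 (FLASH). Many H2A and H2B genes lie head to head and share the stretch between them as a promoter. Ezh2 methylates histone H3 as the catalytic subunit of a Polycomb complex, and p53 arrests or kills damaged cells. Early thymocytes pass from DN1, a mixed population of progenitors, through DN2 to DN3, and divide on the way. The copies within a class are very alike, so a probe may also bind messages of other copies. No probe sequences were used here, so cross-hybridisation was not tested, and a value belongs to a probe, named after its matched gene. How far messages without a poly(A) tail were copied in the labelling was not tested either.

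The promoters of 6 members are shown because these genes stand for the patterns described below: Hist1h1b and Hist1h1c are linker histones with different stage profiles, Hist1h2ba shares its promoter with Hist1h2aa, Hist1h2bm separated DN2 from DN1 arrays, and Hist1h4m and Hist3h2ba differed between genotypes. Each is the stretch of 250 bases before the RefSeq start on GRCm38.p6, printed 5′ to 3′ on the strand of the gene. Capitals mark CCAAT (the CCAAT box), ATTTGCAT (the octamer of H2B promoters), AAACACA (the H1 box), GGTCC (an element of H4 promoters) and TATAAA (the TATA box), searched on both strands, none of them overlapping in these windows. The windows are chr13:21780626-21780875, minus strand (Hist1h1b), chr13:23738557-23738806, plus strand (Hist1h1c), chr13:23934157-23934406, minus strand (Hist1h2ba), chr13:21721794-21722043, plus strand (Hist1h2bm), chr13:21811496-21811745, plus strand (Hist1h4m) and chr11:58948661-58948910, plus strand (Hist3h2ba).
Hist1h1b: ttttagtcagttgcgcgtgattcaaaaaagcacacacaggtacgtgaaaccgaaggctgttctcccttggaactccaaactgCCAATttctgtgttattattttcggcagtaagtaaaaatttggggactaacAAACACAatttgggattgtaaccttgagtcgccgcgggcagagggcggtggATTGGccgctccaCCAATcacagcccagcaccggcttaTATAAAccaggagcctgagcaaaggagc
Hist1h1c: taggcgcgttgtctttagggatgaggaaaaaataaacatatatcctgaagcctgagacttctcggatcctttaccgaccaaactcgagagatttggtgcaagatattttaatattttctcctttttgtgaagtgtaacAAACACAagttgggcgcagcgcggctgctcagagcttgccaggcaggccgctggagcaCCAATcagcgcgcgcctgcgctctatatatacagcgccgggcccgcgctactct
Hist1h2ba: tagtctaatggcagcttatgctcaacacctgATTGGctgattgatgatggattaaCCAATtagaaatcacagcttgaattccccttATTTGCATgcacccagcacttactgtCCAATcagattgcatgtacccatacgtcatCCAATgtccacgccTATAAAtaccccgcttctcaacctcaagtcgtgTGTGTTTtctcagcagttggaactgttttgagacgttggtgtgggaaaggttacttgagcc
Hist1h2bm: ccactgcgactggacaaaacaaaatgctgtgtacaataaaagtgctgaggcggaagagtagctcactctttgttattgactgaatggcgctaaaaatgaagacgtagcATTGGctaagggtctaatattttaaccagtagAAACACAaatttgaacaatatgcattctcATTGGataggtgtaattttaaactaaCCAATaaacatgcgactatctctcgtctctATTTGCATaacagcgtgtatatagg
Hist1h4m: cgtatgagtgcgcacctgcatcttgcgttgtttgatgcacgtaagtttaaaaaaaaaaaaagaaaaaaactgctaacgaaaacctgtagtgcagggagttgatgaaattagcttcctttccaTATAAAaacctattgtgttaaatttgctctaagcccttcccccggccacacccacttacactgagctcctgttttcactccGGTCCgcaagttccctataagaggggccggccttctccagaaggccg
Hist3h2ba: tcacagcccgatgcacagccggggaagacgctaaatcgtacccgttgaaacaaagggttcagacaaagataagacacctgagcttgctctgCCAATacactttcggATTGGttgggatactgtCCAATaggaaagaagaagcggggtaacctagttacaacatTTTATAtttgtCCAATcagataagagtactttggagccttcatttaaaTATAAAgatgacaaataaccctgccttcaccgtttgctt

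Such windows were found for 41 of the 46 genes (42 windows, as 1 gene has 2). CCAAT stood in 36 of the 42 (85.7%), against 33.8% of all 32851 promoters of the same length. It was in every H1, H2A, H2B and H3 window and in 2 of 8 H4 windows. The octamer stood in 7 of 13 H2A and 6 of 10 H2B windows and in no other member, against 1.60% of all promoters. The H1 box stood in 5 of 6 H1, 2 of 13 H2A and 2 of 10 H2B windows, against 6.25% of all promoters. Windows of some head-to-head genes overlap, and a site in the shared stretch is counted for both genes. This holds for the octamer and the H1 box of Hist1h2aa and Hist1h2ba and for the octamer of Hist1h2ae and Hist1h2bg, among others. GGTCC stood in 8 of 8 H4 windows, against 39.8%. TATAAA stood in 22 of the 42 windows, against 12.4% of all promoters. In the printed windows the octamer is thus seen in the shared H2A and H2B promoter of Hist1h2ba and in Hist1h2bm. The H1 box is seen in these windows and in Hist1h1b and Hist1h1c, GGTCC in Hist1h4m, and none of the octamer, H1 box or GGTCC in Hist3h2ba. These are letter matches, not measured binding.

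Levels are given as log2 of the processed fluorescence minus the 75th percentile of the array, so 0 is the level of that percentile, and levels of different probes cannot be set against each other. Between 40.3% and 50.4% of probes passed background on an array, and precision is limited by how few arrays there are. A probe was called when its adjusted p was under 0.05 in limma's fit of genotype and stage (Benjamini-Hochberg over all tested probes), and SE is the standard error of that fit. A stage thus rests on 4 arrays and a genotype on 3, and the labels do not speak of separate mice for the stages. SE and p therefore measure the spread that the additive terms leave between these samples, which may be technical. With 1 array per genotype and stage, this spread includes any difference of the stage changes between genotypes. WT DN1 to DN3 and double-deleted DN2 and DN3 shared slide 1, the 6 Ezh2-deleted and p53-deleted arrays shared slide 2, double-deleted DN1 was on slide 3 and both leukemias on slide 4. A difference of either single deletion from WT or from double-deleted cells, and of ETP-ALL from any other cells, therefore cannot be told apart from the slide. The same holds for a difference of double-deleted DN1 cells from any other cells. The probe of Trp53, which encodes p53, was not above background in p53-deleted cells or 1 leukemia, stood at -3.88, -2.40 and -0.92 in double-deleted cells at DN1, DN2 and DN3 and between 0.11 and 1.68 in WT and Ezh2-deleted cells. The probe of Ezh2 lay between 2.36 and 4.43 on all 14 arrays; its place relative to the deleted exons is not stated, and the probe checks no label. Of 14 early T cell markers, all were above background on every array except Ptcra in 1 leukemia.

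Of the member probes, 7 reached over 50% of the scanner's saturation value in raw signal on at least 1 array, as did 70 of all probes; no probe was saturated. All 7 are H2A probes: Hist1h2af, Hist1h2ag, Hist1h2ah, Hist1h2ak (A_55_P2084652), Hist1h2an, Hist2h2aa2 (A_55_P2131438) and Hist2h2ac. Their raw signal lay between 53.9% and 75.4% of saturation on the double-deleted arrays, and between 57.6% and 79.1% in WT DN2 and DN3 cells. It lay between 18.7% and 42.3% on all slide 2 arrays and from 22.9% to 34.0% in WT DN1 cells. The arrays on which these probes were brightest in raw signal were thus not the arrays on which their scaled level was highest, as the plot of raw signal shows. In WT cells the median DN2 minus DN1 difference was 1.33 for these 7 probes, 2.26 for the 5 other H2A probes above background everywhere, and 2.22 for all 37 other members. Whether the scanner's response flattened in this range was not tested. The medians of the H2A class and the counts that these probes move are mostly given with and without them.

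**Figure D1:**
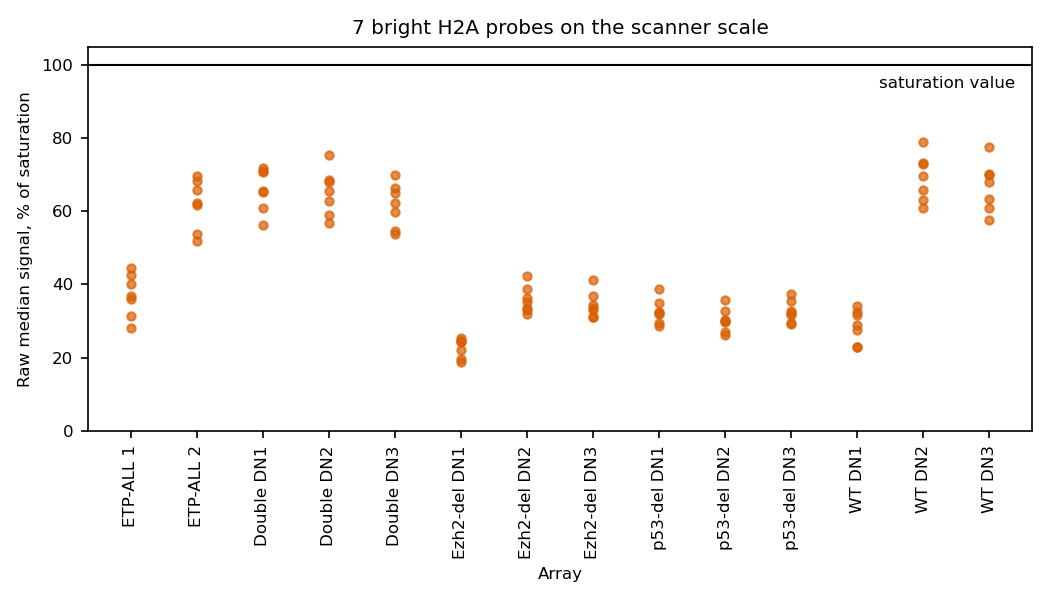
Raw median signal of the 7 bright H2A probes (vertical axis, percent of the scanner's saturation value) on each of the 14 arrays (horizontal axis), 1 point per probe. The points lie between 52.0% and 79.1% on the double-deleted, WT DN2, WT DN3 and second ETP-ALL arrays, and at most at 44.4% on the others.

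The median level of the 44 members above background everywhere ran, from DN1 through DN2 to DN3, through 3.82, 4.59 and 4.14 in double-deleted cells, 3.89, 5.83 and 5.24 in Ezh2-deleted cells, 4.47, 4.15 and 5.02 in p53-deleted cells and 3.75, 5.79 and 5.12 in WT cells. It was 3.75 and 4.05 in the 2 leukemias. WT and Ezh2-deleted DN2 cells thus had the highest medians, and WT DN1 cells and the first leukemia the lowest. The map of all 44 probes shows a warm column for Ezh2-deleted DN2 cells across all 5 classes. The WT DN2 column is warm for H1, H2B, H3 and H4 but nearly neutral for H2A. For H2A probes the median difference from the probe's non-leukemic mean was 0.17 in WT DN2 cells and 1.32 in Ezh2-deleted DN2 cells. It was 0.77 in p53-deleted and 0.74 in Ezh2-deleted DN3 cells.

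As a description over the 14 arrays, the median correlation between probes of a class was 0.470 for H1, 0.889 for H2A, 0.487 for H2B, 0.852 for H3 and 0.699 for H4. These probes share their arrays, scaling and, in part, their sequence. The median correlation of a probe with the others of its class was lowest for Hist1h1c (-0.0731) among H1, Hist2h2aa2 (A_55_P1962084, -0.343) among H2A and Hist3h2ba (-0.0426) among H2B.

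**Figure D2:**
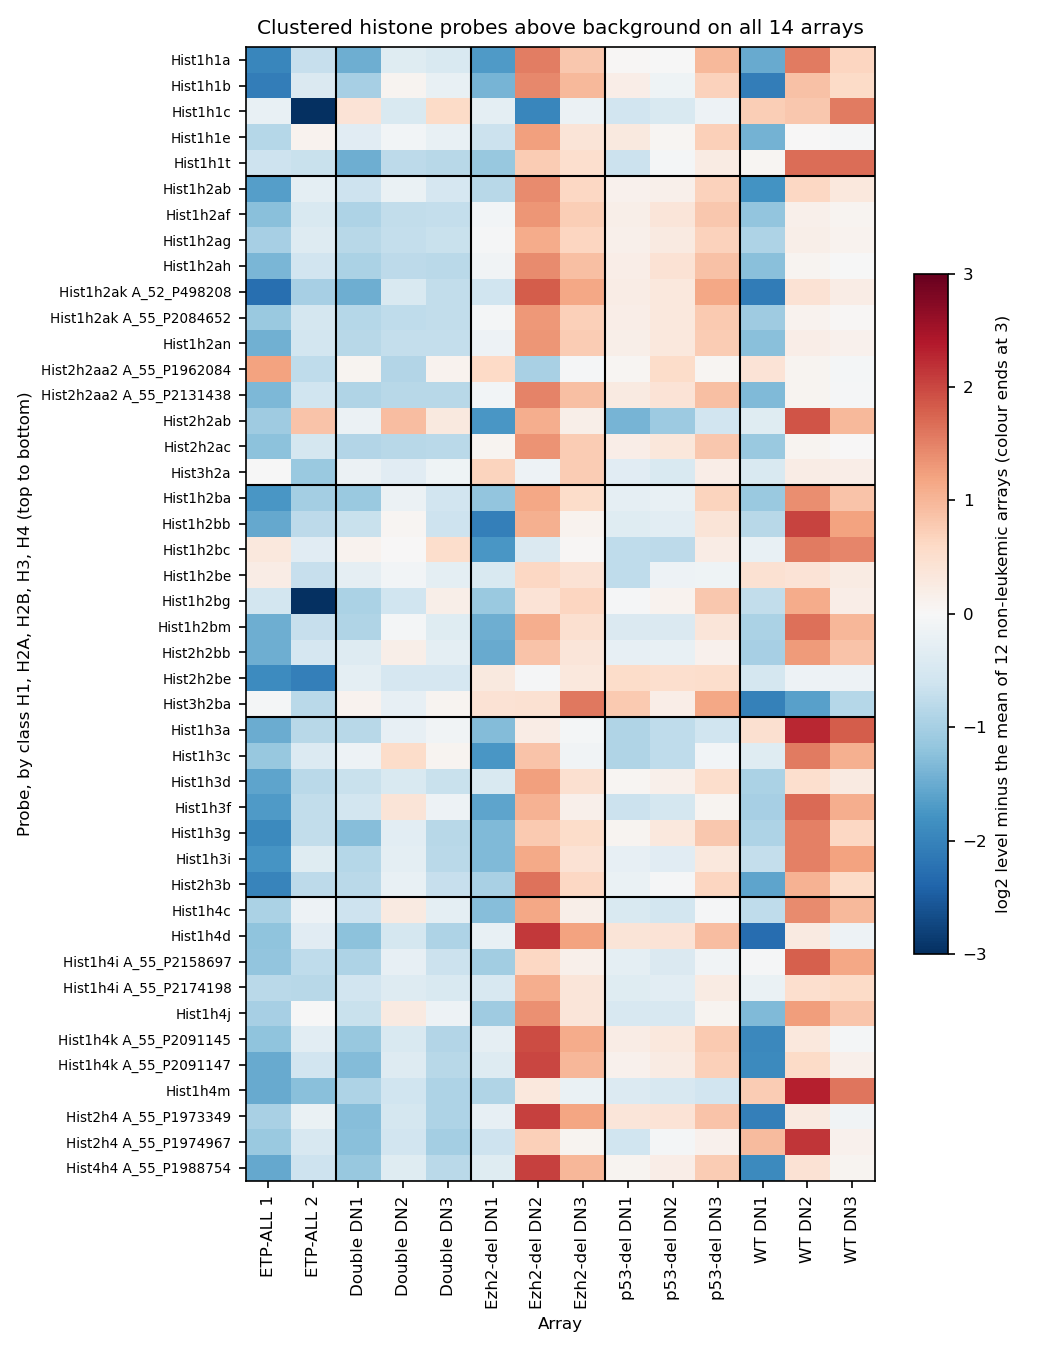
Level of each of the 44 member probes (rows, grouped by class) on each array (columns), as log2 level minus the probe's mean over the 12 non-leukemic arrays; red is higher and blue lower, and the colour ends at 3. Ezh2-deleted and WT DN2 columns are red for most probes, the double-deleted and ETP-ALL columns are mostly blue, and Hist1h1c and Hist3h2ba differ from their neighbours.

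The first stage comparison asks how histone messages differ between DN2 and DN1 cells. In Ezh2-deleted and WT cells they were several-fold higher in DN2 cells, in double-deleted cells the difference was smaller, and in p53-deleted cells the DN2 and DN1 arrays were nearly alike. The median difference over 44 members, DN2 minus DN1, was 0.57 in double-deleted, 1.88 in Ezh2-deleted, 0.10 in p53-deleted and 1.85 in WT cells. Over all 18571 probes above background on every array, the same median was 0.10, 0.28, -0.02 and 0.23. Of the 44 members, 38, 40, 33 and 42 were higher in DN2 cells, in that order of genotypes. Each value rests on 1 array per stage, and the difference between genotypes was not tested. In double-deleted cells the DN1 array was on slide 3 and the DN2 array on slide 1, so there stage and slide cannot be told apart.

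**Figure D3:**
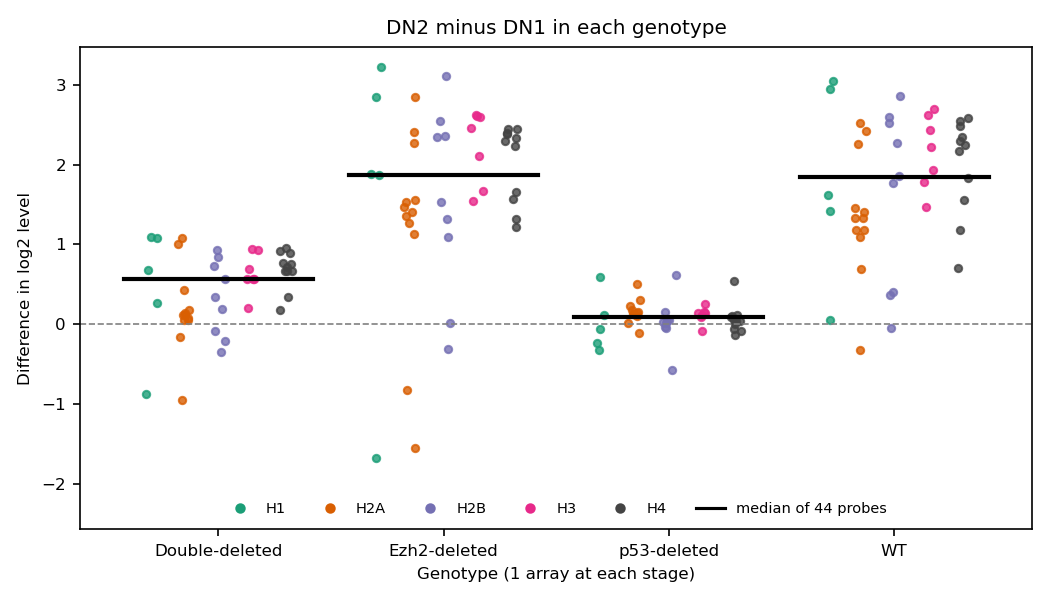
Difference in log2 level between the DN2 and the DN1 array of each genotype (vertical axis) for the 44 member probes, coloured by class, with the median as a bar. The medians are 0.57 in double-deleted, 1.88 in Ezh2-deleted, 0.10 in p53-deleted and 1.85 in WT cells, and nearly all p53-deleted points lie close to 0. The double-deleted DN1 and DN2 arrays were on different slides.

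In the fit over the 4 genotypes, 0 of 50 members were called, against 1.32% of all probes tested, with limma. An unadjusted p under 0.05 was reached by 41 of 50, against 20.3% of all probes. The fitted change was positive for 45 and negative for 5, with a median of 0.99, against 0.13 over all probes. By class the median was 1.19 for H1, 0.80 for H2A, 0.74 for H2B, 1.34 for H3 and 1.33 for H4; without the 7 bright probes it was 1.09 for H2A. Leaving out the p53-deleted DN1 array gave 23 called members, all higher in DN2 cells, against 10.4% of all probes; leaving out the p53-deleted DN2 array also gave 23, all higher, against 6.97%, and 21 were in both. Within slide 1, where double-deleted cells have no DN1 array and DN1 is the WT array alone, the median was 1.61, in a fit with 1 residual degree of freedom.

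Among the linker histones, Hist1h1a stood at 4.07, 5.96, 4.42 and 5.98 in double-deleted, Ezh2-deleted, p53-deleted and WT DN2 cells, against 2.97, 2.73, 4.48 and 2.93 in DN1 cells of the same genotypes. Its DN2 levels were above its DN1 levels in every genotype except p53-deleted cells, where both arrays read nearly the same (1.83 ± 0.49 (SE), adjusted p = 0.122). Hist1h1b stood at 6.97, 8.34, 6.76 and 7.76 in DN2 cells, against 5.90, 5.49, 7.09 and 4.81 in DN1 cells, in the same order of genotypes (1.64 ± 0.50 (SE), adjusted p = 0.152). Hist1h1e stood at 7.20, 8.51, 7.34 and 7.28 in DN2 cells, against 6.94, 6.63, 7.58 and 5.86 in DN1 cells, in the same order of genotypes (0.83 ± 0.34 (SE), adjusted p = 0.223). In p53-deleted cells both of these read slightly lower in DN2 than in DN1, while the other genotypes read higher. Hist1h1c had a negative fitted change: it stood at 2.64, 1.14, 2.64 and 3.91 in DN2 cells, against 3.52, 2.81, 2.53 and 3.86 in DN1 cells, in the same order of genotypes (-0.60 ± 0.30 (SE), adjusted p = 0.291). It read lower in DN2 cells in double-deleted and Ezh2-deleted cells, and slightly higher in p53-deleted and WT cells. Its groups overlapped, with the lowest DN2 level in Ezh2-deleted cells. Hist1h1t, the testis linker histone, stood at -2.69, -1.15, -1.96 and -0.23 in DN2 cells, against -3.36, -3.03, -2.55 and -1.86 in DN1 cells, in the same order of genotypes (1.19 ± 0.25 (SE), adjusted p = 0.0665), the lowest adjusted p among the 50 members.

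Among the H2A members, Hist2h2ab had the largest fitted change: it stood at 0.42, 0.59, -1.60 and 1.38 in DN2 cells, against -0.67, -2.26, -1.90 and -0.88 in DN1 cells, in the same order of genotypes (1.62 ± 0.38 (SE), adjusted p = 0.0885). The 7 bright H2A probes had array differences between 0.05 and 0.18 in double-deleted, 1.13 and 1.56 in Ezh2-deleted, 0.13 and 0.23 in p53-deleted and 1.09 and 1.46 in WT cells. The 7 probes lay close together within each genotype, and their medians were 0.12, 1.40, 0.14 and 1.33 in double-deleted, Ezh2-deleted, p53-deleted and WT cells, against 0.67, 2.27, 0.05 and 2.22 for the 37 other members, so that double-deleted and p53-deleted cells stood nearly level for the bright probes and apart for the rest. As an example, Hist1h2ah stood at 10.45, 12.67, 11.69 and 11.32 in DN2 cells, against 10.31, 11.14, 11.45 and 9.99 in DN1 cells, in the same order of genotypes (0.81 ± 0.27 (SE), adjusted p = 0.171). Of the remaining H2A probes, Hist3h2a had a change of -0.10 and 1 probe of Hist2h2aa2 (A_55_P1962084) of -0.58, neither called.

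Among the H2B members, Hist1h2bm stood at 6.44, 7.59, 6.07 and 8.15 in DN2 cells, against 5.60, 5.04, 6.06 and 5.56 in DN1 cells, in the same order of genotypes (1.50 ± 0.41 (SE), adjusted p = 0.129). All its DN2 levels lay above all its DN1 levels, which also held for Hist1h2bb (1.69), Hist1h2ba (1.46), Hist2h2bb (1.31), Hist1h3f (1.59) and Hist1h4j (1.50), 6 of 50 members against 2.72% of all probes. Hist1h2ba encodes the testis H2B and stood at 5.61, 6.95, 5.57 and 7.18 in DN2 cells, against 4.68, 4.61, 5.52 and 4.66 in DN1 cells, in the same order of genotypes. Hist3h2ba and Hist2h2be had fitted changes near 0, of -0.13 and -0.05.

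All 7 H3 and all 12 tested H4 members had a positive fitted change, from 0.86 to 1.59 and from 0.19 to 1.50. Hist1h3f stood at 3.47, 4.13, 2.57 and 4.78 in DN2 cells, against 2.53, 1.52, 2.45 and 2.09 in DN1 cells, in the same order of genotypes (1.59 ± 0.42 (SE), adjusted p = 0.116). Hist2h3b, of the Hist2 locus, stood at 6.08, 7.95, 6.27 and 7.36 in DN2 cells, against 5.51, 5.35, 6.12 and 4.73 in DN1 cells, in the same order of genotypes (1.49 ± 0.44 (SE), adjusted p = 0.145). For Hist2h3b the p53-deleted DN1 level lay above the double-deleted DN2 level, so the groups overlapped. Hist1h3d and Hist1h3c, H3 genes of the Hist1 locus, had changes of 0.86 and 1.34. For H4, Hist1h4c stood at 4.20, 5.09, 3.37 and 5.34 in DN2 cells, against 3.30, 2.64, 3.46 and 3.16 in DN1 cells, in the same order of genotypes (1.36 ± 0.39 (SE), adjusted p = 0.139), and the probe of Hist1h4k with the higher mean (A_55_P2091145) at 8.81, 11.23, 9.57 and 9.57 in DN2 cells, against 8.13, 8.99, 9.48 and 7.33 in DN1 cells, in the same order of genotypes (1.31 ± 0.37 (SE), adjusted p = 0.137). Hist1h4d (1.41), Hist2h4 (A_55_P1973349, 1.35) and Hist4h4 (A_55_P1988754, 1.41) had changes of like size, and none was called.

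**Figure D4:**
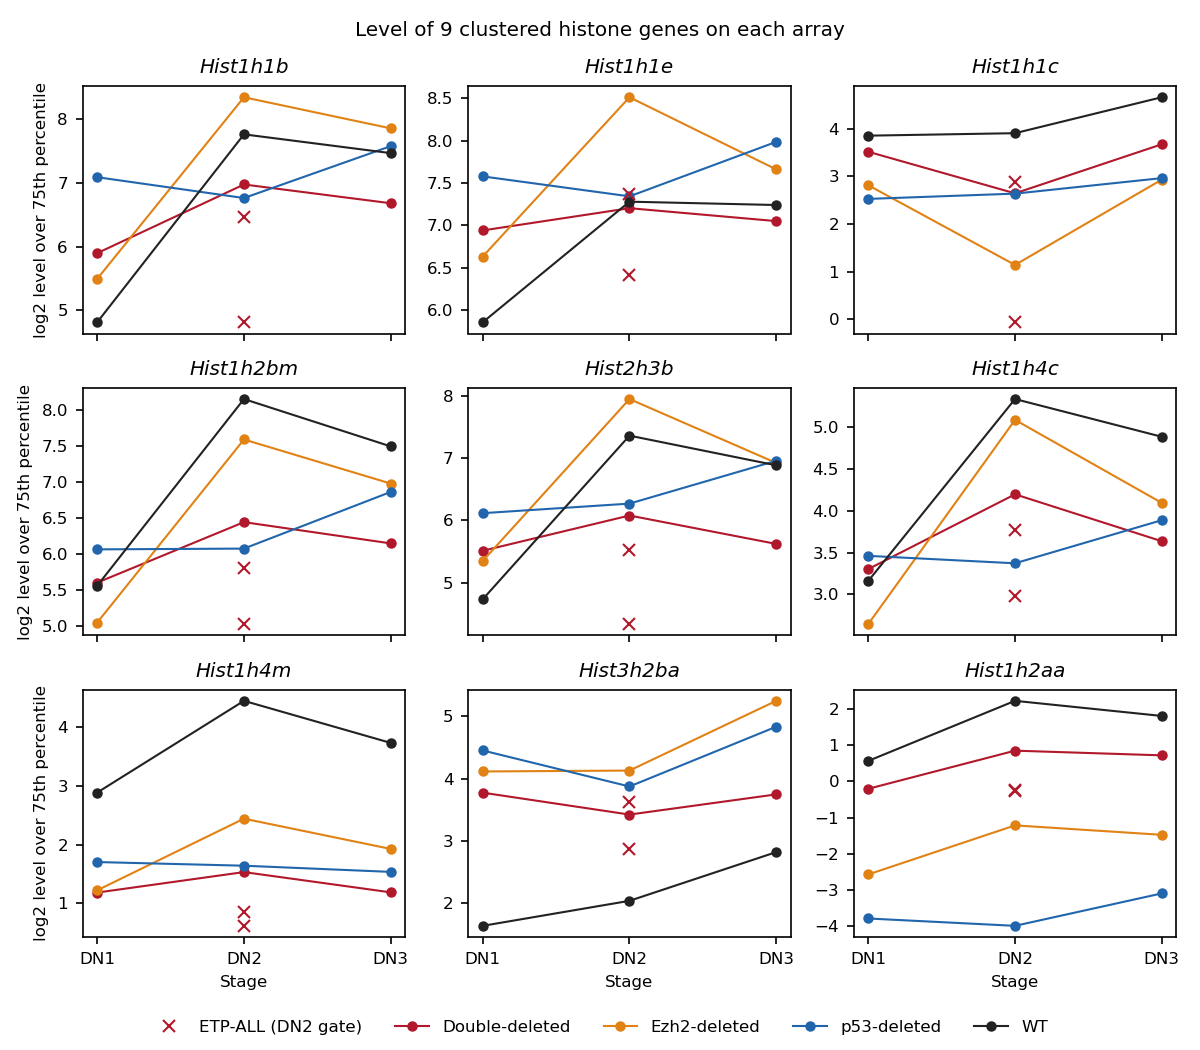
Log2 level relative to the 75th percentile of the array (vertical axes, which differ between panels) at each stage (horizontal axis) for 9 clustered histone genes. Lines join the arrays of 1 genotype and crosses are the 2 ETP-ALL arrays, drawn at DN2; Hist1h1b, Hist1h1e, Hist1h2bm, Hist2h3b and Hist1h4c peak at DN2 in Ezh2-deleted and WT cells, Hist1h4m and Hist1h2aa are highest in WT cells at every stage, and Hist3h2ba is lowest there; the p53-deleted points of Hist1h2aa are not above background.

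Lists of other genes followed the same step: of 37 DNA replication genes 37 had a positive fitted change (median 1.20), of 20 mitosis genes 20 (median 1.19), of 21 histone chaperone genes 18 (median 0.58), of 11 histone genes outside the clusters 10 (median 0.61) and of 13 genes of histone transcription and message processing 12 (median 0.33); 0 of each list were called. The median level of the replication genes also differed little between the p53-deleted DN2 and DN1 arrays (3.49 and 3.78), against 4.42 and 1.91 in WT cells. Of 8 natural killer (NK) cell markers, all 8 were above background on the 4 DN1 arrays and on the p53-deleted DN2 array, against 5, 5 and 3 on the double-deleted, Ezh2-deleted and WT DN2 arrays. The log2 summed NK marker level was 1.82, 2.57, 4.69 and 2.10 in double-deleted, Ezh2-deleted, p53-deleted and WT DN2 cells, against 5.04, 8.02, 7.13 and 7.49 in DN1 cells. Of 8 myeloid markers, 7, 5, 3 and 5 were above background in DN2 cells, against 8, 8, 4 and 8 in DN1 cells, in the same order. The part of these cells in the histone values was not tested, and fewer cells of a type cannot be told apart from less RNA per cell in sorted bulk samples.

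The second stage comparison sets DN3 against DN2 cells. Of 50 members 0 were called, against 0.0222% of all probes, and 2 had an unadjusted p under 0.05 in limma's fit, against 6.36% of all probes. The fitted change was positive for 13 and negative for 37, with a median of -0.11, against 0.02 over all probes. All 7 H3 members (median -0.28) and all 12 tested H4 members (median -0.32) had a negative fitted change, whereas 6 of 11 H2B members had a positive one. Array by array, the median over 44 members was -0.29 in double-deleted, -0.60 in Ezh2-deleted, 0.50 in p53-deleted and -0.34 in WT cells. In p53-deleted cells 42 of 44 members were higher in DN3 than in DN2 cells, and 28 of the 44 were higher there and lower in all of the other genotypes. Hist1h1b, for example, stood at 7.57 in p53-deleted DN3 cells, against 6.76 in p53-deleted DN2 cells, and at 7.46 in WT DN3 cells, against 7.76 in WT DN2 cells. At DN3 the median level was 5.02 in p53-deleted and 5.12 in WT cells, on different slides, so genotype and slide cannot be told apart. These medians hide opposite class differences. The median of p53-deleted minus WT at DN3 was 0.11 for H1, 0.67 for H2A, -0.37 for H2B, -0.88 for H3 and -0.0009 for H4. Hist1h1c had one of the larger positive changes, 0.98 ± 0.30 (SE), adjusted p = 0.508: it stood at 3.68, 2.93, 2.96 and 4.66 in double-deleted, Ezh2-deleted, p53-deleted and WT DN3 cells, against 2.64, 1.14, 2.64 and 3.91 in DN2 cells, higher in DN3 in all 4 genotypes. NK markers above background numbered 2, 1, 2 and 2 in DN3 cells; their part in these values was not tested.

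Next, the double deletion was compared with WT; the arrays of both shared a slide at DN2 and DN3. In DN2 and DN3 cells nearly all members read lower in double-deleted than in WT cells; in DN1 cells most read higher, a direction that turned with another scaling. The median over 44 members, double-deleted minus WT, was 0.23 at DN1, -0.96 at DN2 and -0.93 at DN3, against 0.21, -0.07 and -0.20 over all probes. Lower in double-deleted cells were 12 of 44 members at DN1, 43 at DN2 and 42 at DN3. Of all probes above background on every array, 59.3%, 45.9% and 30.1% were higher in double-deleted cells at these stages, so at DN3 most probes read lower. The DN1 array of double-deleted cells was alone on slide 3, so at DN1 genotype and slide cannot be told apart. With the percentile over probes detected on all arrays the medians were -0.08, -0.95 and -0.73, negative at DN1 too. With quantile normalization they were 0.34, -0.86 and -0.59, but those of the 12 H2A probes were -0.07 at DN2 and -0.16 at DN3, against -0.89 and -0.80 with the 75th percentile. The 5 H2A probes other than the 7 bright ones had -0.88 and -0.68 with the 75th percentile.

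**Figure D5:**
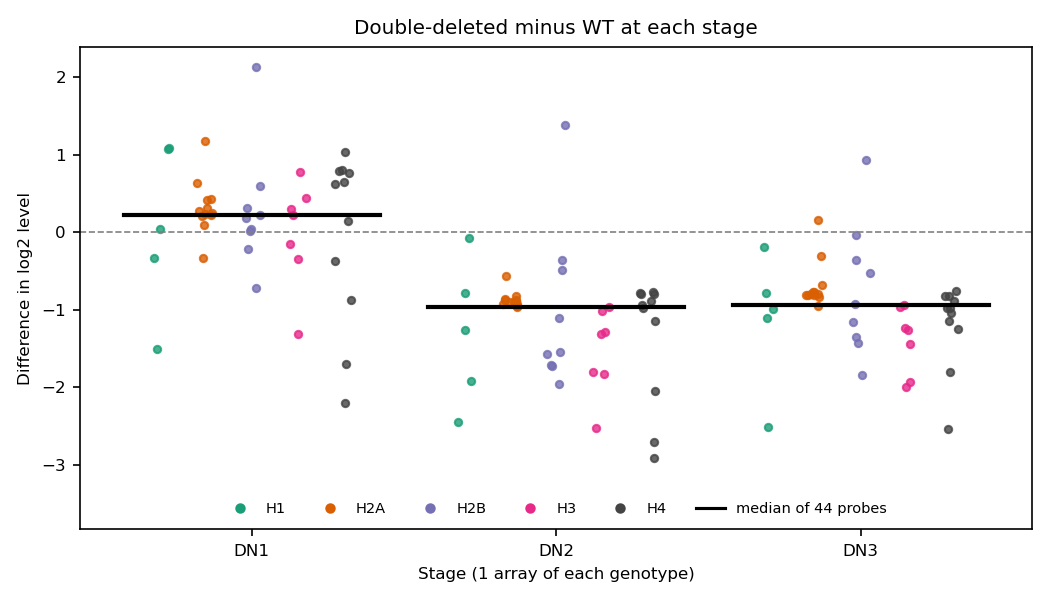
Difference in log2 level between the double-deleted and the WT array of each stage (vertical axis) for the 44 member probes, coloured by class, with the median as a bar. The bars stand at 0.23 at DN1, -0.96 at DN2 and -0.93 at DN3, and the highest H2B point at each stage is Hist3h2ba.

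In the fit over the 3 stages, 6 of 50 members were called, 1 higher and 5 lower in double-deleted cells, against 6.89% of all probes. The fitted change was negative for 47 of 50, with a median of -0.57, against -0.07 over all probes; with quantile normalization it was negative for 35, and all 7 bright H2A probes turned positive. Hist1h4m, an H4 gene, stood at 1.18, 1.53 and 1.19 in double-deleted cells at DN1, DN2 and DN3, against 2.89, 4.44 and 3.73 in the WT cells. It fell by 2.38 ± 0.31 on the log2 scale (SE, adjusted p = 0.00371), and its groups did not overlap. Hist1h1t stood at -3.36, -2.69 and -2.73 in double-deleted cells at DN1, DN2 and DN3, against -1.86, -0.23 and -0.22 in the WT cells. It fell by 2.16 ± 0.29 on the log2 scale (SE, adjusted p = 0.00445), again without overlap. These 2 were also called within slide 1, under each of the other settings run and with each of the 12 arrays left out. The remaining 4 calls were each lost in the fit within slide 1, where 1.88% of all probes were called, and with at least 2 of the 12 arrays left out in turn, among them WT DN2 and double-deleted DN2 each time.

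Hist1h3a, an H3 gene, stood at 1.24, 1.82 and 1.96 in double-deleted cells at DN1, DN2 and DN3, against 2.56, 4.34 and 3.89 in the WT cells, and fell by 1.92 ± 0.32 on the log2 scale (SE, adjusted p = 0.0112). The second probe of Hist2h4 (A_55_P1974967) stood at -2.60, -1.93 and -2.38 in double-deleted cells at DN1, DN2 and DN3, against -0.40, 0.78 and -1.24 in the WT cells, and fell by 2.02 ± 0.38 on the log2 scale (SE, adjusted p = 0.0196). Hist1h4i (A_55_P2158697) stood at 2.21, 2.88 and 2.49 in double-deleted cells at DN1, DN2 and DN3, against 3.08, 4.92 and 4.29 in the WT cells, and fell by 1.57 ± 0.36 on the log2 scale (SE, adjusted p = 0.0381). The other probe of Hist1h4i (A_55_P2174198) was not called in limma's fit, with a change of -0.77 (adjusted p = 0.156). For all the probes called lower here, the 3 double-deleted levels lay below the 3 WT levels, by the narrowest gap in Hist1h4i (A_55_P2158697). Hist3h2ba was the exception: it stood at 3.77, 3.42 and 3.75 in double-deleted cells at DN1, DN2 and DN3, against 1.64, 2.04 and 2.82 in the WT cells, and rose by 1.48 ± 0.28 on the log2 scale (SE, adjusted p = 0.0201). The count was 2 without the WT DN2 array, 2 without the double-deleted DN2 array, 3 without the double-deleted DN1 array and 4 without the WT DN1 or the double-deleted DN3 array. Members that were not called include Hist1h1b (log2 change -0.16), Hist2h2bb (-0.56), Hist2h3b (-0.59), Hist1h3d (-0.53) and Hist1h2ah (-0.45).

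Beside this, the median fitted change was 0.50 over 37 replication genes (34 positive), 0.86 over 20 mitosis genes (19 positive), 0.24 over 21 chaperone genes, 0.24 over 13 genes of histone transcription and processing and -0.01 over 11 histone genes outside the clusters, with 0 called in each. Slbp, whose protein binds the stem-loop, stood at 2.16, 2.63 and 2.05 in double-deleted cells at DN1, DN2 and DN3, against 0.49, 1.57 and 2.09 in the WT cells, with a change of 0.90 ± 0.33 (SE, adjusted p = 0.13). Casp8ap2 had a change of 0.19 ± 0.27 (SE, adjusted p = 0.698). NK markers above background numbered 8, 5 and 2 in double-deleted cells at DN1, DN2 and DN3 and 8, 3 and 2 in WT cells, and myeloid markers 8, 7 and 7 against 8, 5 and 4; their part was not tested.

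Ezh2-deleted and p53-deleted cells were then each set against WT cells; in both comparisons genotype and slide cannot be told apart, and both share the WT arrays. In Ezh2-deleted cells 19 of 50 members were called, 10 higher and 9 lower, against 34.5% of all probes, and the median change was -0.09, against 0.19 over all probes. In p53-deleted cells 14 of 50 were called, 3 higher and 11 lower, against 36.3%, with a median of -0.09, against 0.13. The shares are close to those of all probes, so the counts say nothing particular about histone genes. By class, the medians were 0.79 for the 15 H2A probes and -0.58 for H3 in Ezh2-deleted cells, and 0.72 for H2A and -0.76 for H3 in p53-deleted cells. The H2A values rested on the 7 bright probes: without them the median of the 8 other H2A probes was 0.07 in Ezh2-deleted cells (4 higher, 4 lower) and -0.06 in p53-deleted cells (4 higher, 4 lower), and the count of called members was 14 and 14. With quantile normalization those 8 probes had -0.13 and -0.15. Without the Ezh2-deleted DN2, Ezh2-deleted DN3, WT DN1 or WT DN2 array the count for Ezh2-deleted cells was 10, 9, 9 and 12, and without the WT DN2 array the count for p53-deleted cells was 7. With the 75th percentile taken over probes detected on all arrays, 7 of 17 calls for Ezh2-deleted cells were higher, and with quantile normalization 7 of 18 for p53-deleted cells.

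Hist1h2aa, which encodes the testis H2A, stood at -2.58, -1.22 and -1.48 in Ezh2-deleted cells at DN1, DN2 and DN3, against 0.57, 2.23 and 1.81 in the WT cells, and fell by 3.29 ± 0.33 on the log2 scale (SE, adjusted p = 0.00015). In p53-deleted cells it was not above background at any stage, which made it at least 33.2-fold lower than in WT cells (adjusted p = 9.35e-06). Such a bound divides the brighter group's mean by the mean, over the dim arrays, of the lowest signal that counts as above background there, or of the probe's own where higher. Hist1h2bq, an H2B gene, was at least 4.45-fold lower in p53-deleted than in WT cells (adjusted p = 0.0132); in Ezh2-deleted cells 1 of 3 arrays was above background, and the probe was called lower there too (adjusted p = 0.0242), with no size given. Hist1h4m stood at 1.22, 2.44 and 1.93 in Ezh2-deleted cells at DN1, DN2 and DN3, against 2.89, 4.44 and 3.73 in the WT cells, and fell by 1.82 ± 0.31 on the log2 scale (SE, adjusted p = 0.00258). It stood at 1.70, 1.64 and 1.54 in p53-deleted cells at DN1, DN2 and DN3, where it fell by 2.06 ± 0.31 on the log2 scale (SE, adjusted p = 0.00119). In both genotypes all its levels lay below the 3 WT levels.

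Hist1h3a stood at 0.76, 2.30 and 2.01 in Ezh2-deleted cells at DN1, DN2 and DN3, against 2.56, 4.34 and 3.89 in the WT cells, and fell by 1.91 ± 0.32 on the log2 scale (SE, adjusted p = 0.00222). In p53-deleted cells its levels were 1.15, 1.29 and 1.47, and fell by 2.29 ± 0.32 on the log2 scale (SE, adjusted p = 0.00074). Hist1h1c stood at 2.81, 1.14 and 2.93 in Ezh2-deleted cells at DN1, DN2 and DN3, against 3.86, 3.91 and 4.66 in the WT cells, and fell by 1.85 ± 0.35 on the log2 scale (SE, adjusted p = 0.00413). Neither gene's levels overlapped between these genotypes and WT cells. In p53-deleted cells Hist1h1c stood at 2.53, 2.64 and 2.96, and fell by 1.43 ± 0.35 on the log2 scale (SE, adjusted p = 0.012). Hist1h2bc, an H2B gene, stood at 1.82, 3.14 and 3.59 in Ezh2-deleted cells at DN1, DN2 and DN3, against 3.35, 5.12 and 5.02 in the WT cells, and fell by 1.65 ± 0.38 on the log2 scale (SE, adjusted p = 0.0101) with overlapping groups. Hist2h2ab, an H2A gene of the Hist2 locus, stood at -1.90, -1.60 and -1.07 in p53-deleted cells at DN1, DN2 and DN3, against -0.88, 1.38 and 0.46 in the WT cells, and fell by 1.85 ± 0.44 on the log2 scale (SE, adjusted p = 0.0114).

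In the other direction, Hist3h2ba stood at 4.11, 4.13 and 5.25 in Ezh2-deleted cells at DN1, DN2 and DN3, against 1.64, 2.04 and 2.82 in the WT cells, and rose by 2.33 ± 0.28 on the log2 scale (SE, adjusted p = 0.000405). It stood at 4.45, 3.87 and 4.83 in p53-deleted cells, where it rose by 2.22 ± 0.28 on the log2 scale (SE, adjusted p = 0.000465). Every level of it in a deleted genotype, double-deleted cells included, lay above the highest WT level. Hist1h2ac, an H2A gene, stood at -0.02, 0.69 and 1.59 in p53-deleted cells at DN1, DN2 and DN3, against -2.19, -0.23 and -0.91 in the WT cells, and rose by 1.86 ± 0.44 on the log2 scale (SE, adjusted p = 0.0103). Hist2h2be, an H2B gene, stood at -0.25, -0.29 and -0.27 in p53-deleted cells at DN1, DN2 and DN3, against -1.31, -0.94 and -0.94 in the WT cells, and rose by 0.79 ± 0.21 on the log2 scale (SE, adjusted p = 0.0179). Neither gene's groups overlapped. Of the probes that rose in Ezh2-deleted cells, Hist1h4d rose by 1.75 (adjusted p = 0.0194), Hist2h4 (A_55_P1973349) by 1.62 (0.0201), Hist1h4k (A_55_P2091145) by 1.49 (0.0265), Hist4h4 (A_55_P1988754) by 1.36 (0.044) and Hist2h2aa2 (A_55_P2131438) by 1.19 (0.0249), all with overlapping groups. Hist1h1c, Hist1h2aa, Hist1h2bc, Hist1h3a, Hist1h4m and Hist3h2ba stayed called in Ezh2-deleted cells under every setting that tested them and with each array left out, and Hist1h1t, Hist1h2aa, Hist1h2ac, Hist1h3a, Hist1h4m and Hist3h2ba in p53-deleted cells; the other calls were lost in at least 1. Hist1h1t had a change of -1.09 in Ezh2-deleted cells (adjusted p = 0.0197) and fell by 1.29 in p53-deleted cells (adjusted p = 0.00915).

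Double-deleted cells were also set against each single deletion, across slides, so that genotype and slide cannot be told apart. Against Ezh2-deleted cells 17 of 50 members were called, 2 higher and 15 lower in double-deleted cells, against 30.6% of all probes, with a median of -0.73, against -0.16 over all probes. Against p53-deleted cells 14 of 50 were called, 2 higher and 12 lower, against 31.6%, with a median of -0.69, against -0.14. Both shares are near those of all probes. Without the 7 bright H2A probes, 10 members were called against Ezh2-deleted cells and 7 against p53-deleted cells; with quantile normalization the counts were 11, 4 of them higher, and 8, and with the percentile over probes detected everywhere 4 of 18 were higher against Ezh2-deleted cells. Leaving out the double-deleted DN2, double-deleted DN3 or Ezh2-deleted DN2 array gave 8 calls against Ezh2-deleted cells each, and leaving out the double-deleted DN2, double-deleted DN3, p53-deleted DN1 or p53-deleted DN3 array gave 4, 2, 8 and 5 against p53-deleted cells.

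Hist1h2aa stood at -0.20, 0.85 and 0.72 in double-deleted cells at DN1, DN2 and DN3, against -2.58, -1.22 and -1.48 in the Ezh2-deleted cells, and rose by 2.21 ± 0.33 on the log2 scale (SE, adjusted p = 0.0017). It was at least 15.7-fold higher in double-deleted than in p53-deleted cells (adjusted p = 4.61e-05). Hist1h2ae, an H2A gene, stood at -0.83, -0.76 and 0.42 in double-deleted cells at DN1, DN2 and DN3, against -4.22, -1.76 and -1.16 in the Ezh2-deleted cells, and rose by 1.99 ± 0.46 on the log2 scale (SE, adjusted p = 0.0126). Its lowest level, in Ezh2-deleted DN1 cells, was not above background, so the change takes 1 array at a value that is only a bound; the 2 measured Ezh2-deleted levels lay below all double-deleted levels. Hist2h2ab stood at -0.67, 0.42 and -0.22 in double-deleted cells at DN1, DN2 and DN3, against -1.90, -1.60 and -1.07 in the p53-deleted cells, and rose by 1.37 ± 0.44 on the log2 scale (SE, adjusted p = 0.043). Hist1h2ac stood at -2.26, -2.07 and -1.14 in double-deleted cells at DN1, DN2 and DN3, against -0.02, 0.69 and 1.59 in the p53-deleted cells, and fell by 2.58 ± 0.44 on the log2 scale (SE, adjusted p = 0.00277). Hist1h4d, an H4 gene, stood at 7.25, 7.96 and 7.57 in double-deleted cells at DN1, DN2 and DN3, against 8.26, 10.60 and 9.70 in the Ezh2-deleted cells, and fell by 1.93 ± 0.47 on the log2 scale (SE, adjusted p = 0.0152). For Hist2h2ab, Hist1h2ac and Hist1h4d every level of double-deleted cells lay on 1 side of the other genotype. Against Ezh2-deleted cells, Hist2h4 (A_55_P1973349) fell by 1.89, the Hist1h4k probes by 1.75 and 1.71, Hist1h2ak (A_52_P498208) by 1.68 and Hist4h4 (A_55_P1988754) by 1.66, with adjusted p between 0.012 and 0.0232. Against p53-deleted cells, Hist1h4d fell by 1.46, Hist1h2ak (A_52_P498208) by 1.45, Hist2h4 (A_55_P1973349) by 1.44, Hist2h2aa2 (A_55_P2131438) by 1.38 and Hist1h2ah by 1.36, with adjusted p between 0.0118 and 0.0417. Of these calls, Hist1h2aa alone against Ezh2-deleted cells, and Hist1h2aa and Hist1h2ac against p53-deleted cells, held under every setting that tested them and with each array left out.

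Ezh2-deleted and p53-deleted cells shared slide 2 and were compared with each other. Of 50 members 1 was called, against 3.87% of all probes, with a median change of 0.22, against 0.08; the change was positive for 37 of 50, but with quantile normalization for 24. Hist1h2aa stood at -2.58, -1.22 and -1.48 in Ezh2-deleted cells at DN1, DN2 and DN3, and was not above background in p53-deleted cells, so it was at least 3.39-fold higher (adjusted p = 0.019). This call was lost with normexp background correction, within slide 2, with only probes above background everywhere (which removes this probe), and without the Ezh2-deleted DN2, Ezh2-deleted DN3 or p53-deleted DN3 array, where the count was 0. Array by array, the median of Ezh2-deleted minus p53-deleted over 44 members was -0.52 at DN1, 1.08 at DN2 and 0.01 at DN3, with 40 of 44 lower at DN1 and 41 of 44 higher at DN2 in Ezh2-deleted cells. Over all probes the medians were -0.06, 0.21 and 0.18. Hist1h1a shows it: it stood at 2.73, 5.96 and 5.23 in Ezh2-deleted cells at DN1, DN2 and DN3, against 4.48, 4.42 and 5.40 in the p53-deleted cells. On the same slide, the 2 genotypes thus differed in opposite directions at DN1 and DN2 under the 3 scalings run; at DN3 the direction turned with the scaling (-0.07 with quantile normalization and -0.23 with the percentile over probes detected on all arrays), and the change over stages was not tested.

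The leukemic cells were set against the level fitted for DN2 cells with both deletions; the leukemias had a slide of their own, so leukemia and slide cannot be told apart. Most members read lower in ETP-ALL: the fitted change was negative for 48 of 50, with a median of -0.91, against -0.03 over all probes. Of 50 members 1 was called, against 2.37% of all probes, and 10 had an unadjusted p under 0.05 in limma's fit, against 18.0% of all probes. The called member was Hist2h2be, which stood at -2.68 and -2.83 in the leukemias and -1.30 in double-deleted DN2 cells, and fell by 1.48 ± 0.25 on the log2 scale (SE, adjusted p = 0.0166). On every non-leukemic array it stood at -1.31 or above. The count was 4 without the first leukemia, 2 without the p53-deleted DN2 array, and 0 without the second leukemia, the double-deleted DN1 or the double-deleted DN2 array. The 2 leukemias differed: against the double-deleted DN2 array, the median over 44 members was -0.93 in the first (36 lower) and -0.36 in the second (30 lower). By class, the fitted median was -1.24 for H1, -0.42 for H2A, -1.31 for H2B, -1.14 for H3 and -0.68 for H4. Without the 7 bright probes it was -1.03 for H2A. Against the double-deleted DN2 array alone, the 12 H2A probes above background everywhere had a median of -0.52 in the first leukemia and 0.19 in the second, where 8 of them read higher, the 7 bright ones included. The 5 H2A probes other than the bright ones had medians of -1.45 in the first (2 higher) and -0.10 in the second (1 higher).

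Among H1 genes, Hist1h1b stood at 4.82 and 6.47 in the leukemias, against 6.97 in double-deleted DN2 cells (-1.44 ± 0.77 (SE), adjusted p = 0.353). Hist1h1c stood at 2.89 and -0.06, against 2.64 (-1.34 ± 0.78 (SE), adjusted p = 0.395), so the second leukemia alone was low. Hist1h2ac was above background at -0.59 in the first leukemia and not in the second. Hist1h2bg, an H2B gene, stood at 0.21 and -2.47, against 0.14 in double-deleted DN2 cells, and 1 probe of Hist2h2aa2 (A_55_P1962084) at 4.27 and 2.31, against 2.20. The 2 leukemias thus fell on either side of one another by gene, and the second had the higher median. Hist2h3b stood at 4.34 and 5.53, against 6.08 (-1.41 ± 0.65 (SE), adjusted p = 0.292). Beside them, the fitted median was -1.24 over 37 replication genes and -1.31 over 20 mitosis genes, all negative with 0 called, -0.77 over 21 chaperone genes with Hira called (-1.47 ± 0.31 (SE, adjusted p = 0.0409)), -0.74 over 11 histone genes outside the clusters and -0.40 over 13 genes of histone transcription and processing. Slbp stood at 0.09 and 1.55 in the leukemias, against 2.63 in double-deleted DN2 cells, a fitted change of -1.63 ± 0.51 (SE, adjusted p = 0.137). NK and myeloid markers above background numbered 4 of 8 each in both leukemias, against 5 and 7 in double-deleted DN2 cells; their part was not tested.

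Genes with more than 1 probe show how far a value belongs to the probe. The 2 probes of Hist1h2ak correlated at 0.956 over the 14 arrays, those of Hist1h4k at 0.990 and those of Hist1h4i at 0.832. The probes of Hist2h2aa2 did not: their correlation was -0.339, and between DN2 and DN1 cells A_55_P1962084 had a fitted change of -0.58 and A_55_P2131438, one of the 7 bright probes, of 0.79. The probes of Hist2h4 correlated at 0.316, and against WT cells A_55_P1973349 had changes of 1.62 in Ezh2-deleted and 1.17 in p53-deleted cells, where A_55_P1974967 had -1.02 and -1.26. For these 2 genes the direction depends on the probe, and no direction is given for the gene. The Hist1h4i probes differed in size in spite of their correlation. Over WT cells, A_55_P2158697 had changes of -1.06, -1.24 and -1.57 in Ezh2-deleted, p53-deleted and double-deleted cells, each called. A_55_P2174198 had 0.04, -0.44 and -0.77 there, none called. Of head-to-head pairs whose windows overlap, Hist1h2aa and Hist1h2ba share 220 bases and correlated at 0.113, Hist1h2ae and Hist1h2bg share 179 and correlated at 0.234, and Hist1h2an and Hist1h2bp share 239 and correlated at 0.406, over 14 arrays each. Hist1h2aa was above background on 11 of these arrays, Hist1h2ae on 13 and Hist1h2bp on 9. Each correlation therefore rests in part on values that were not above background. In the first pair, whose shared promoter is the Hist1h2ba window above, Hist1h2ba stood at 5.52, 5.57 and 6.46 in p53-deleted cells at DN1, DN2 and DN3 and 4.66, 7.18 and 6.65 in WT cells, while Hist1h2aa was above background in WT and not in p53-deleted cells.

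Genes that serve the histone clusters were read from lists of genes outside them. Npat was above background on 3 of 14 arrays and Casp8ap2 and Slbp were called in none of the 9 comparisons, with Slbp changes from -1.63 in ETP-ALL to 0.90 in double-deleted over WT cells. Of the 13 genes of histone transcription and processing, Sympk, a scaffold of the cleavage machinery, rose in Ezh2-deleted cells (1.49 ± 0.27 (SE, adjusted p = 0.00359)) and in p53-deleted cells (0.81 ± 0.27 (SE, adjusted p = 0.0448)) over WT cells, across slides. Of 11 histone genes outside the clusters, H2afx, the variant phosphorylated at DNA breaks, and H2afj, an H2A variant, were called over WT in Ezh2-deleted cells (1.43 ± 0.42 (SE, adjusted p = 0.0278) and 1.02 ± 0.33 (SE, adjusted p = 0.0415)). In p53-deleted cells H2afx (1.42 ± 0.42 (SE, adjusted p = 0.0278)) and H1f0, a linker histone of resting cells (1.17 ± 0.34 (SE, adjusted p = 0.0273)), rose, and H2afy and H2afy2, the macroH2A genes (-1.03 ± 0.25 (SE, adjusted p = 0.0115) and -1.25 ± 0.30 (SE, adjusted p = 0.0108)), fell. H1f0 was not above background on the WT DN1 array, so its change takes that array at a value that is only a bound. Of the chaperones, Atrx, which places H3.3 with Daxx, fell in both (-1.55 ± 0.25 (SE, adjusted p = 0.0019) and -1.35 ± 0.25 (SE, adjusted p = 0.00341)), and Asf1a, which hands H3 and H4 to other chaperones, rose in both (1.19 ± 0.27 (SE, adjusted p = 0.00922) and 1.84 ± 0.27 (SE, adjusted p = 0.000932)). All of these compare slide 2 with slide 1. In Ezh2-deleted over WT cells 6 of 21 chaperone genes were called higher and 2 lower, 1 and 1 of 37 replication genes, and 0 and 2 of 20 mitosis genes, against 34.5% of all probes. In p53-deleted over WT cells these counts were 2 and 2, 0 and 1, and 0 and 2, against 36.3% of all probes. In double-deleted over Ezh2-deleted cells they were 3 and 4, 2 and 0, and 3 and 0, against 30.6%. The shares of the replication and mitosis lists lay below these percentages throughout. The mitosis genes called lower in both single deletions were Cdk1, the mitotic kinase, and Aurkb, which phosphorylates histone H3 in mitosis, and neither was above background on any of their arrays. Cdk1 was at least 39.4-fold lower in Ezh2-deleted cells (adjusted p = 9.27e-05) and at least 49.8-fold lower in p53-deleted cells (adjusted p = 8.20e-05) than in WT cells, and Aurkb at least 2.35-fold (adjusted p = 0.000474) and at least 2.97-fold (adjusted p = 0.000171). Most of the mitosis list went the other way. In Ezh2-deleted over WT cells 15 of the 20 genes had a positive fitted change (median 0.38), and in p53-deleted over WT cells 16 (median 0.37).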

How the data were processed

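Gene expression was measured on 14 one-colour Agilent mouse arrays, 1 for each sample, with Cy3-labelled cRNA, per the labels' protocols. Per the file headers, the authors read them with Agilent Feature Extraction on a grid of build mm9, which gave the deposited intensity of each spot, subtracted for background, detrended across the array, with dim spots set to a positive surrogate and no scaling between arrays; raw median intensity and flags stand beside it. The authors' deposited value table holds that signal divided by about the 75th percentile of its array, as its columns showed when set against the scanner values (column medians 0.065 to 0.105, 75th percentiles 1.002 to 1.004); it is linear, uncentred and on the samples' own scale. Coordinates and sequences are RefSeq's on GRCm38.p6, of which only the promoter table was used. Control spots and outlier spots were dropped, and replicate spots averaged per probe. An accession matched 27656 of 55681 probes to 1 gene. Log2 intensity minus the 75th percentile of the array was fitted in limma 3.58.1 (R 4.3.3; lmFit, eBayes) with genotype and stage as additive terms on 12 arrays, for 31484 probes above background on at least 2 of 14 arrays, and with a leukemia term on all 14 arrays for 31415 probes. The fits left 6 and 7 residual degrees of freedom, with 2.97 and 2.83 added by the prior. Adjusted p-values are limma's, by Benjamini-Hochberg over all probes of a comparison. The fit was tested on simulated data. Members, lists and naming rule (called members, or the 6 that changed most each way where over 12 were called; the 4 probes of each class with the highest mean; linker and testis genes; Hist3 and Hist4; disagreeing probes) were chosen with earlier results of these data known. Alternatives were another background correction (normexp, offset 50, on median intensities), 2 other scalings, 2 filters, 1 probe per gene, the slide as a term, a block or a subset, the value table, and each array left out.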

Additional observations from a re-analysis of the deposited data

Results flagged for a closer look

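Between DN2 and DN1, 8 of 44 members differed in p53-deleted cells in the opposite direction to all of the other genotypes, which had 1 array per stage, so the difference was not tested. The share of all probes with this pattern is not given here, so the count says nothing particular about histone genes. Over all probes above background on every array, 47.5% were higher in p53-deleted DN2 than in p53-deleted DN1 cells. The double-deleted DN1 and DN2 arrays were on different slides. For DN2 minus DN1, Hist1h1a had -0.0612 in p53-deleted cells, with 1.0988, 3.2300 and 3.0530 in double-deleted, Ezh2-deleted and WT cells. Hist1h1b had -0.3270 in p53-deleted cells, with 1.0770, 2.8481 and 2.9470 in double-deleted, Ezh2-deleted and WT cells. The p53-deleted value was -0.2350 for Hist1h1e, -0.0825 for Hist1h3i, -0.0890 for Hist1h4c, -0.1388 for Hist1h4i (A_55_P2158697) and -0.0623 for Hist1h4m, all positive in the other genotypes. Hist2h2aa2 (A_55_P1962084) had 0.4996 in p53-deleted cells and negative values in the others. For DN3 minus DN2, the median over 44 members was 0.4987 in p53-deleted cells and negative in the other genotypes. For double-deleted minus WT it was 0.2274 at DN1 and negative at DN2 and DN3, but with the percentile over probes detected on all arrays it was -0.08 at DN1. For Ezh2-deleted minus p53-deleted it was -0.5170 at DN1 and positive at DN2; at DN3 it was 0.01, and negative under both other scalings. None of these differences was tested. The p53-deleted DN2 array also had all 8 NK markers above background, unlike the other DN2 arrays; its part in these values was not tested.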

How the results depend on the processing

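The count of called members was the value that depended most on the setting. The share of all probes called also moved with the setting and is mostly not given beside these counts. They therefore describe how the calls depended on the processing, not how histone genes compare with other probes. For DN2 over DN1 the count was 0, but 1 with only probes above background on all arrays of the fit (Hist1h1t). Within slide 1, where DN1 is the WT array alone, the median change was 1.61, against 0.99. For double-deleted over WT the count was 6, but 14 with normexp, 3 with the slide as a fixed term and 2 within slide 1. With the slide as a random block it was 26 in place of 14 for p53-deleted over WT, and 22 in place of 14 for double-deleted over p53-deleted. Quantile normalization gave 8 for double-deleted over p53-deleted and 11, in place of 17, for double-deleted over Ezh2-deleted; leaving out the 7 members over 50% of the saturation value, an alternative chosen after seeing the data, gave 7 and 10. For Ezh2-deleted over p53-deleted it was 0 in place of 1 with normexp, with only probes above background everywhere, and within slide 2. For ETP-ALL it was 2 in place of 1 with normexp. With each array left out in turn the count ranged over 0 to 23 for DN2 over DN1, 0 to 0 for DN3 over DN2, 9 to 24 for Ezh2-deleted over WT, 7 to 17 for p53-deleted over WT, 2 to 7 for double-deleted over WT, 2 to 19 for double-deleted over p53-deleted, 8 to 19 for double-deleted over Ezh2-deleted, 0 to 1 for Ezh2-deleted over p53-deleted and 0 to 4 for ETP-ALL. The median change over the members then ranged over 0.80 to 1.25, -0.42 to 0.06, -0.33 to 0.18, -0.39 to 0.16, -0.82 to -0.36, -1.01 to -0.42, -1.03 to -0.50, -0.08 to 0.45 and -1.09 to -0.57, in the same order. Of single calls, 4 turned their sign, all with quantile normalization: Hist1h2ag (0.0914) against p53-deleted cells, and Hist1h2ah (0.0710), Hist1h2af (0.0885) and Hist1h2ag (0.1265) against Ezh2-deleted cells. The cause was not tested. No separate paired analysis was run. The additive terms of the fits already set stages against each other within a genotype, and genotypes within a stage. The limits are 1 array per genotype and stage, slides that coincide with genotypes, 7 H2A probes bright enough to near saturation, probes of close copies that may bind each other's messages, and an unknown yield of messages without a poly(A) tail.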

Other observations

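The histone variant gene H2afj lies outside the clusters. Its profile over the 14 arrays correlated with the 7 bright H2A probes at 0.991 to 0.998, arrays and scaling being shared; whether its probe binds clustered H2A messages was not tested.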
